A study of Mus musculus with 14 samples.

Results

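Barhl1 and Barhl2, the mouse genes for the paired Bar-class homeodomain transcription factors, were followed here through single-cell RNA-seq of the Atoh1 lineage of the hindbrain. They were found by their symbols and are 2 of the 31054 features counted in each of 14 libraries. The study asked how partial loss of Atoh1 function changes the development of the pontine nuclei (PN), the brainstem relay that sends mossy fibers to the cerebellum. Control hindbrains (Atoh1 Cre/+; Rosa lsl-TdTomato/+) were compared with littermate hindbrains of the genotype Atoh1 Cre/S193A; Rosa lsl-TdTomato/+, called Atoh1 S193A/- below, at embryonic days E14.5 and E18.5, with 3 embryos per genotype and stage and 1 embryo per library. The other 2 libraries were control PN at postnatal day P5, each pooled from several pups. All mice were on the C57BL/6J strain.

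The Cre was inserted into Atoh1 itself and destroyed that copy, so the control embryos also carried 1 null copy of Atoh1, and cells that had used the Atoh1 locus were labelled with TdTomato. S193A replaces a phosphorylated serine of the remaining protein and lowers its function without removing it. A single changed base cannot be seen in a 3′ count, so the Atoh1 level does not check the genotype labels. In all sorted cells Atoh1 differed by 0.39 on the log2 scale at E14.5 and by 0.40 at E18.5, mutant over control, and neither passed the test (edgeR quasi-likelihood, Benjamini-Hochberg adjusted p = 0.72 and 1.0). An edgeR fit with littermate pairs as a block called Atoh1 higher in mutants at E14.5, where 17.1% of genes were called. That fit did not call Atoh1 at E18.5. Live TdTom+ cells were sorted and labelled as neurons. Microglia-, vascular- and oligodendrocyte-like cells were nevertheless found at P5, and these serve below as a comparison for both genes.

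Bar-class homeodomain proteins bind DNA and recruit Groucho/TLE corepressors. In the developing hindbrain Atoh1 marks the progenitors of the rhombic lip, from which granule cells of the cerebellum, unipolar brush cells and the precerebellar neurons of the pons arise, and Barhl genes act downstream of Atoh1 in these neurons. Barhl1 is needed for the survival and migration of granule cells and PN neurons, partly through neurotrophin-3 (Ntf3). Barhl2 is known mainly from commissural neurons of the spinal cord, the diencephalon and the retina.

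Barhl1 (ENSMUSG00000026805) lies on the minus strand at chr2:28907679-28916668 (GRCm38) with 5 annotated transcripts, of which 3 code for protein. Barhl2 (ENSMUSG00000034384) lies on the minus strand at chr5:106452523-106458166 with 1 transcript of 3 exons. The promoters are shown because Atoh1 is a basic helix-loop-helix protein, a class that binds E-boxes of the form CANNTG, and because these data compare genotypes of Atoh1. The 250 bases before each RefSeq start (GRCm38.p6, minus strand) are written 5′ to 3′, with every CANNTG in capitals. The second Barhl1 window belongs to a transcript that starts inside the gene.

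Barhl1, chr2:28916669-28916918: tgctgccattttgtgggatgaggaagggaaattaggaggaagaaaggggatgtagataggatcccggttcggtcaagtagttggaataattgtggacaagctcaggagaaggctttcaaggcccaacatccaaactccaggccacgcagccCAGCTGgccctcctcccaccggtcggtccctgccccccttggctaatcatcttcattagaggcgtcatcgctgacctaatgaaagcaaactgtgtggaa
Barhl1 internal start, chr2:28912496-28912745: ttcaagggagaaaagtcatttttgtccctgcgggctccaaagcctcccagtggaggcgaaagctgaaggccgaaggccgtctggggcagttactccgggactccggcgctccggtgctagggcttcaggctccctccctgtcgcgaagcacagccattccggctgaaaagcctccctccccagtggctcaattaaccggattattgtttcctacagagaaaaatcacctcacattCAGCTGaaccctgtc
Barhl2, chr5:106458167-106458416: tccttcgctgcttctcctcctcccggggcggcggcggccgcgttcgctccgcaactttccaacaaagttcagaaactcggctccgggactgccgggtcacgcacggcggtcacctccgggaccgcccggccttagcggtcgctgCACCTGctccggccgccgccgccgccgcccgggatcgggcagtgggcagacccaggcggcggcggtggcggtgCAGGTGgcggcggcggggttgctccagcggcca

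The main Barhl1 window held 1 E-box, with the letters CAGCTG and its first base 99 bases before the start, and the internal window held a CAGCTG at 15. The Barhl2 window held CACCTG at 106 and its reverse complement CAGGTG at 33. Of 32851 promoters of the same length, 66.2% held a CANNTG, 13.0% held CAGCTG, which is its own reverse complement, and 17.2% held 1 of the pair found at Barhl2. GC content was 52.8% for Barhl1 and 74.8% for Barhl2, against a median of 52.4% over all promoters. The letters describe these windows only, since no binding was measured here.

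The libraries held 108239001 to 236964126 unique molecular identifiers (UMIs), and 3248 to 8726 cells per library were kept. Levels below are in CPM, the UMIs of a gene scaled to the total UMIs of the summed cells of a class in a library. Because only the 3′ end is counted, levels of Barhl1 and Barhl2 are not compared with each other, and only their ratio is compared between classes. Cells were clustered without Barhl1, Barhl2 and Atoh1, and classes were named by fixed markers, so they carry "-like". Atoh1 is among the markers that name intermediate progenitors. Among the 91 pairs of libraries, shared cell barcodes made up at most 0.624% of the smaller library. The littermates with replicate number 2 at E14.5 stood apart. Cluster 12, migrating pontine-like cells, held 11.0% of control 2 and 7.29% of mutant 2 but at most 0.433% of the other 4 libraries, whereas cluster 10 of the same class was almost absent from that pair. Mutant 2 also held only 1 differentiated pontine-like and 4 non-dividing granule-like cells and was left out of those sums. Values without this pair are given beside the results that change.

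In control embryos at E14.5 Barhl1 differed between the pontine-like states, which were ordered by their markers and not by a trajectory. It was low in Hox-positive pontine-like progenitors, highest in the Atoh1-high intermediate progenitors, and then lower in migrating and in differentiated neurons. Pontine-like progenitors had 118, 133 and 122 CPM in controls 1 to 3. Intermediate progenitors had 1345, 1058 and 1072 CPM, and migrating neurons 919, 890 and 729 CPM. Each step was larger than the spread between libraries, and the library ranges of neighboring steps did not overlap. Differentiated pontine-like neurons had 657, 627 and 540 CPM, also below every migrating sum. They were cluster 6, with Cnr1, Hoxc4 and Hoxa4 among its top genes, and whether it held only PN neurons was not tested.

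Outside the pontine lineage Barhl1 was present at a lower level in the cerebellar branch. The 3 granule-like classes had nearly the same level at E14.5, with 350 ± 40.1 CPM in dividing cells, 348 ± 48.5 in non-dividing progenitors and 352 ± 44.6 in newborn neurons (SD, n = 3), and did not differ beyond their spread. Unipolar brush cell-like neurons followed with 168 ± 60.5 CPM, and their libraries overlapped with those of the pontine-like progenitors. At E14.5 this class was led by Calb2, Tbr1 and Lmx1a, and Eomes was not among its top genes. The E18.5 class of the same name did have Eomes among them, so the 2 may not hold the same cells. Other Hox-positive neurons had 113 ± 46.7 CPM, inhibitory neuron-like cells 54.3 ± 17.8, dorsal rhombic lip-like cells 26.9 ± 12.2 and other Hox-negative neurons 23.3 ± 4.70. The libraries of the other Hox-positive neurons overlapped with those of the unipolar brush cell-like neurons, and those of the dorsal rhombic lip-like cells with the other Hox-negative neurons. The inhibitory neuron-like libraries, at 41.5 to 74.6 CPM, overlapped with neither of the classes beside them in the order. A pair of these values rested on 1 cluster each. Cluster 18, 451 of 2508 control cells of the other Hox-positive class with Hoxb2, Nhlh1 and Cntn2 among its top genes, had 521 ± 56.3 CPM, the fifth highest of 36 clusters and above every granule-like cluster. Without it the class had 18.7 ± 15.7 CPM. Cluster 33, 154 of 3780 control cells of the other Hox-negative class, is described below, and without it that class had 7.84 ± 1.43 CPM. Both clusters were set apart after their values were seen. Glia-like cells had 8.30, 2.44 and 46.0 CPM, a level set by a few UMIs.

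Barhl2 was distributed differently. In pontine-like cells, intermediate progenitors had 60.8, 9.38 and 59.1 CPM in controls 1 to 3. Control 2 lay far below the others, and mutant 2, its littermate, was as low. Migrating neurons had 21.0, 9.70 and 17.1 CPM, lower than intermediate progenitors in controls 1 and 3 and at nearly the same level in control 2. Progenitors had 1.36, 2.64 and 3.88 CPM and differentiated pontine-like neurons 0.944, 1.02 and 1.96 CPM, so Barhl2 was close to undetectable in both states. The highest Barhl2 level of any E14.5 cluster was in cluster 33, Hox-negative neurons led by Tcf7l2, Shox2, Tfap2d and Pou4f1, at 154 ± 19.3 CPM. Barhl1 was at 406 ± 19.3 CPM in the same cells, ahead of every granule-like cluster at that stage.

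Barhl2 was also found in clusters with little Barhl1. Cluster 0, Hox-positive neurons led by Ramp3, Tshz2, Hoxb5 and Foxb1, had 56.7 ± 12.3 CPM of Barhl2 and 10.1 ± 5.05 CPM of Barhl1. Cluster 27, Hox-negative neurons led by Foxb1 and Nr4a2, had 45.4 ± 5.36 CPM of Barhl2 and 13.0 ± 10.8 CPM of Barhl1. Both genes were found in inhibitory neuron-like cluster 9, led by Gata3 and Sox14, with 48.5 ± 19.5 CPM of Barhl2 and 74.9 ± 19.0 CPM of Barhl1. The ratio of Barhl1 to Barhl2 UMIs in control libraries was 276 to 696 in differentiated pontine-like neurons, 13.0 to 43.4 in dividing granule-like cells, and 1.13 to 1.38 in other Hox-negative neurons. The first of these rests on only 4, 1 and 20 Barhl2 UMIs in controls 1 to 3. Without cluster 33 the last ratio was 0.536 to 0.786.

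**Figure D1:**
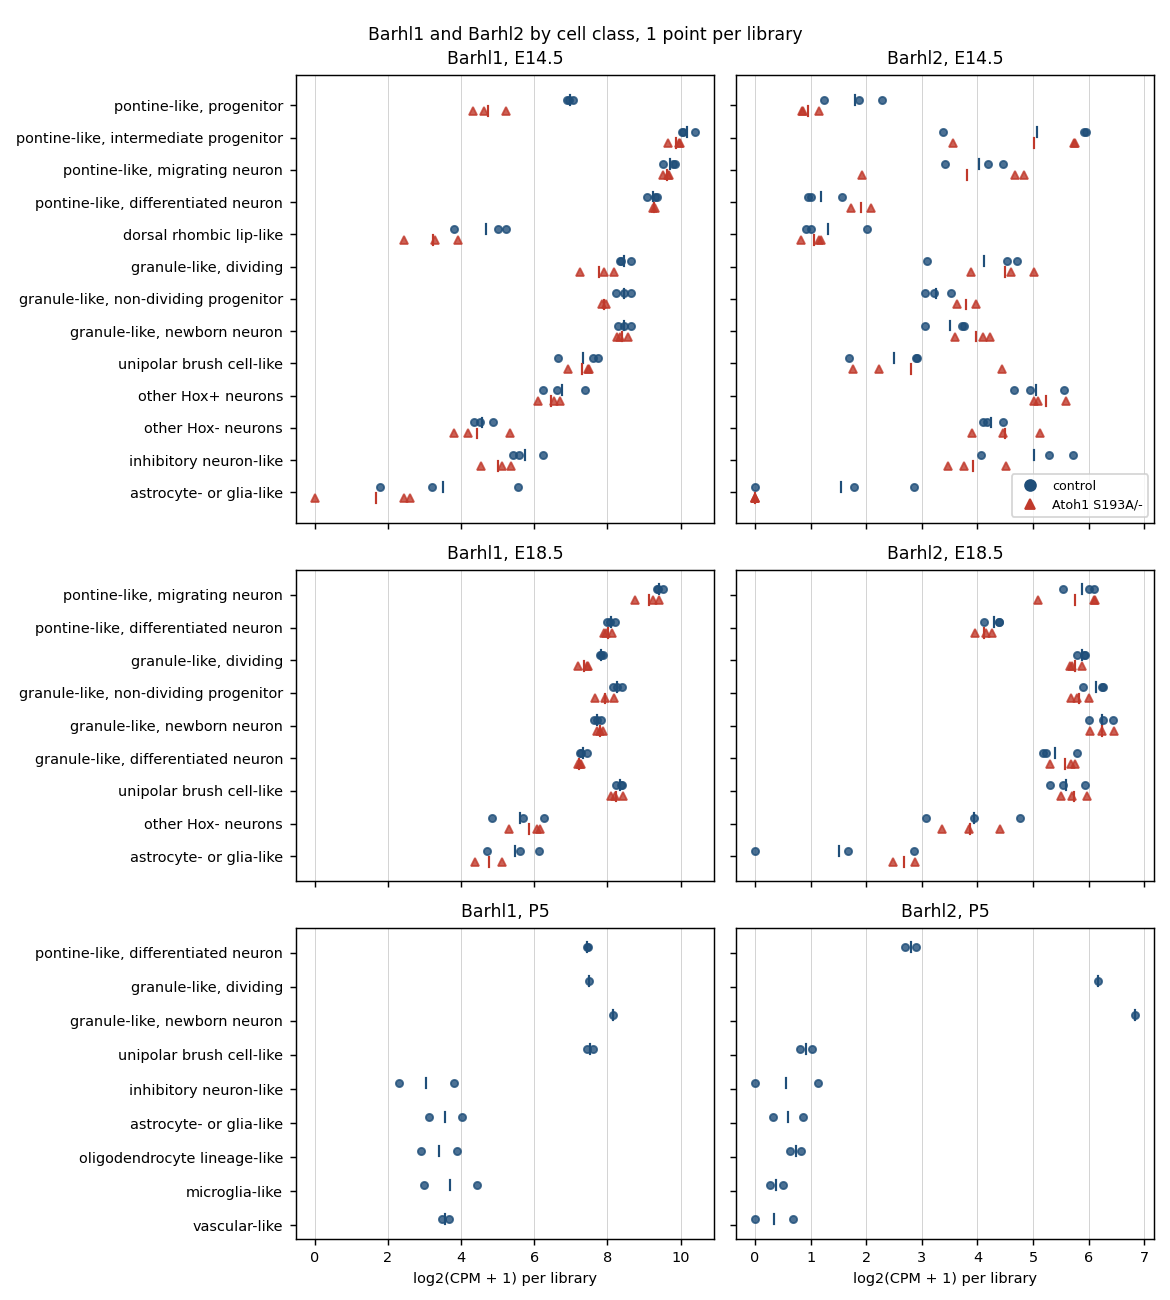
Level of Barhl1 (left) and Barhl2 (right) in each class at E14.5, E18.5 and P5 as log2(CPM + 1), with 1 point per library and a bar at the group mean. Circles are control and triangles Atoh1 S193A/- libraries. Barhl1 is highest in E14.5 pontine-like intermediate progenitors, at 1158 CPM in controls, and the genotypes stand apart in pontine-like progenitors, at 118 to 133 CPM against 19.1 to 36.3 CPM.

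At E18.5 both genes were expressed across the granule-like lineage, which made up 63.9% to 73.6% of control cells. Migrating pontine-like neurons had the highest Barhl1 level of any named class, 730, 663 and 648 CPM in controls 1 to 3, and differentiated pontine-like neurons had 297, 266 and 252 CPM. Unipolar brush cell-like neurons had 336, 333 and 301 CPM and non-dividing granule-like progenitors 339, 285 and 303 CPM, which overlapped. Dividing granule-like cells had 227 ± 5.95 CPM, newborn granule-like neurons 210 ± 13.4 and differentiated ones 160 ± 11.3 (SD, n = 3). The level in differentiated granule-like neurons lay below those in the other 3 granule-like classes in every control library.

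Within each of the 4 granule-like classes the cluster means spanned a wider fold range than the class means, which ran from 160 to 309 CPM. Non-dividing granule-like cluster 17, led by Nts, Barx2 and Olig2, had 498 ± 29.0 CPM of Barhl1. Cluster 13, led by Tlx3 and Fgf8, had 133 ± 10.7 CPM, and the dividing Tlx3 and Fgf8 cluster 5 had 97.6 ± 1.09 CPM. The differentiated granule-like cluster 6, led by Fgf5, had 70.1 ± 11.1 CPM. A pair of clusters that met no class rule, led by Lmx1a and Bcl11b and by Nr2f2 and Bcl11b, had 646 ± 76.4 and 509 ± 18.2 CPM.

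Among the named classes at E18.5 newborn granule-like neurons had the highest mean Barhl2. Their sums held 85.4, 75.5 and 63.3 CPM in controls 1 to 3, against a mean of 18.7 ± 2.13 CPM (SD, n = 3) in differentiated pontine-like neurons, and the ranges did not overlap. They did overlap with non-dividing granule-like progenitors, at 58.8 to 75.8 CPM, and with migrating pontine-like neurons, at 45.6 to 67.6 CPM. The cluster led by Nr2f2 and Bcl11b, which met no class rule, was higher, at 107 ± 9.70 CPM, and the one led by Lmx1a and Bcl11b had a mean of 82.8 ± 22.5 CPM. Of all clusters the highest mean was in cluster 14, newborn neurons with Inhbb, Nhlh1, Cntn2 and Ebf1 among their top genes, at 189 ± 20.6 CPM. Dividing cells of cluster 2 had 125 ± 3.16 CPM and differentiated neurons of cluster 10, led by Syt6 and Sp5, had 117 ± 20.3 CPM. In cluster 10 Barhl1 was 130 ± 30.1 CPM, so its Barhl2 was among the highest and its Barhl1 among the lower values of the lineage. The ratio of Barhl1 to Barhl2 UMIs was 2.85 ± 0.41 in newborn granule-like neurons and 14.6 ± 1.14 in differentiated pontine-like neurons.

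**Figure D2:**
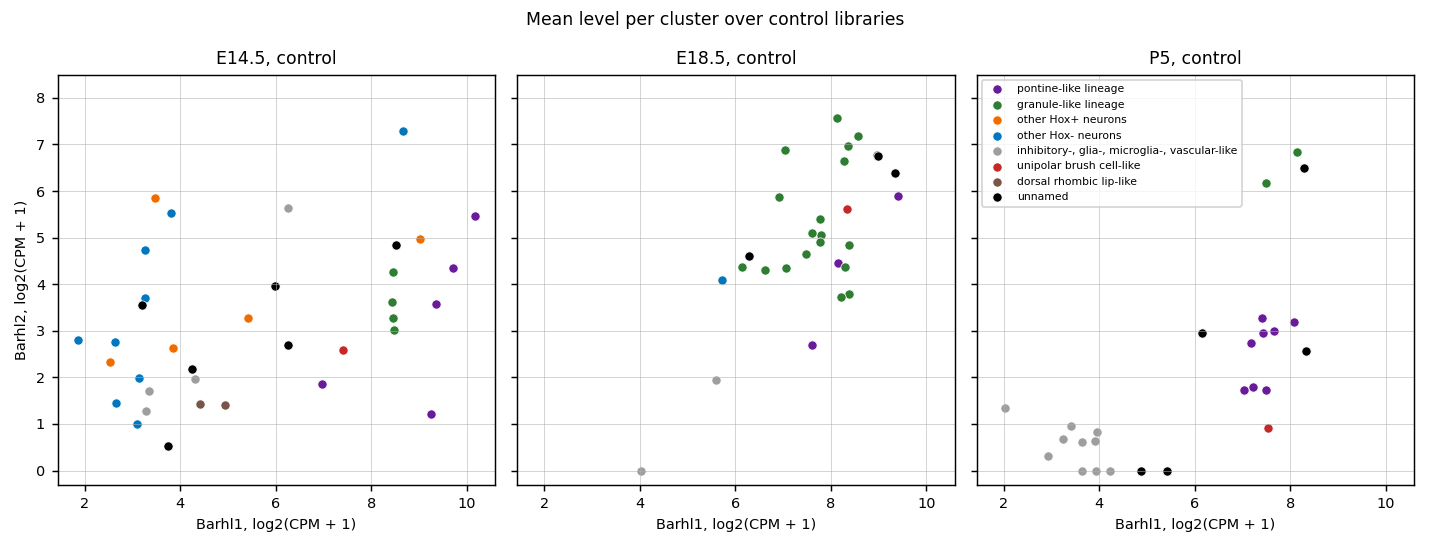
Mean level of Barhl1 (x axis) and Barhl2 (y axis) in each cluster over control libraries as log2(CPM + 1), at E14.5, E18.5 and P5, colored by class. At E14.5 pontine-like clusters 1, 10, 12 and 6 lie farthest to the right, at 608 to 1158 CPM of Barhl1, while progenitor cluster 7 has 124 CPM. Barhl2 in the pontine-like clusters runs from 1.31 CPM in cluster 6 to 43.1 CPM in cluster 1. Hox-positive cluster 0 and Hox-negative clusters 27 and 3 lie at the upper left, with 25.7 to 56.7 CPM of Barhl2. At E18.5 the granule-like clusters spread upward, to 189 CPM of Barhl2.

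At P5 the differentiated pontine-like neurons, 8253 of the 14006 cells kept, still held Barhl1 at 172 and 176 CPM in the pooled libraries. Barhl2 was at 6.48 and 5.52 CPM. Between pontine-like clusters Barhl1 ranged from 127 and 132 CPM in cluster 2, with Gstm1 and Cdkn1c among its top genes, to 270 ± 26.2 CPM in cluster 10, led by Rprml (SD, n = 2). Cluster 0, led by Sst, had 202 ± 7.60 CPM. Barhl2 in these clusters stayed between 2.30 and 8.62 CPM. Unipolar brush cell-like neurons had 172 and 194 CPM of Barhl1 with 1.02 and 0.743 CPM of Barhl2. Granule-like cells reached the minimum of 10 cells in P5 library 2 only, and there newborn granule-like neurons had 281 CPM of Barhl1 and 114 CPM of Barhl2.

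Some UMIs of Barhl1 were also found in non-neuronal classes. At P5, microglia-like cells had 20.5 and 6.90 CPM of Barhl1, and glia-, oligodendrocyte- and vascular-like cells had means of 10.2 to 11.5 CPM. With every cell thinned to 5000 UMIs, 3.03% to 10.3% of microglia-like and 2.70% to 7.06% of oligodendrocyte-like cells held a Barhl1 UMI, compared with 52.1% to 53.2% of pontine-like neurons. Median depths were 10134 to 10405 UMIs in microglia-like cells and 27569 to 30339 in pontine-like neurons before thinning. For Barhl2 the non-neuronal classes at P5 held a UMI in 0% to 0.85% of cells, and pontine-like neurons in 2.57% to 3.12%.

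Whether both genes were detected in the same cells was asked at the same depth of 5000 UMIs. In pontine-like intermediate progenitors and migrating neurons at E14.5, the share of cells with both was 0.87 to 1.15 times the product of the separate shares. It was 1.10 to 1.18 times the product in dividing granule-like cells at E18.5. Inhibitory neuron-like cells at E14.5 held both 3.72 to 6.67 times as often as the product in control libraries and 5.68 to 9.37 times in mutant libraries. Other Hox-negative neurons gave 2.52 to 3.75 and 2.19 to 4.05 times. A class of several unlike clusters gives a value above 1 without any link inside a cell, and both of these classes held such clusters. The value also cannot exceed 1 divided by the share of cells with a Barhl1 UMI. Where Barhl1 was high, as in the pontine-like classes, it had less room above 1. It therefore cannot tell whether the genes were linked there, and it is not compared between classes.

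From E14.5 to E18.5, over all sorted control cells, Barhl2 rose and Barhl1 did not pass the test. Barhl2 was at 20.5, 21.7 and 17.6 CPM in E14.5 controls 1 to 3 and at 63.8, 59.3 and 44.8 CPM at E18.5. Every E18.5 library lay above every E14.5 library. The log2 fold change was 1.41 (SE 0.14, 2.65-fold; edgeR quasi-likelihood, Benjamini-Hochberg adjusted p = 0.000565). The background is wide, since 51.6% of the 10291 genes tested were called in the same comparison. Barhl1 was at 394, 210 and 252 CPM at E14.5 and at 278, 251 and 245 CPM at E18.5, which overlapped, and its log2 fold change was -0.22 (SE 0.20, adjusted p = 0.39 in the same edgeR fit). Within each lineage control Barhl1 was lower at E18.5, without overlap. The pontine-like lineage had 691 to 915 CPM at E14.5 and 284 to 372 CPM at E18.5, when it held no progenitor or intermediate class. The granule-like lineage had 314 to 397 and 221 to 242 CPM. In sums over all sorted cells, fewer cells of a type and less RNA per cell cannot be told apart. The granule-like lineage grew from 6.77% to 21.0% of control cells at E14.5 to 63.9% to 73.6% at E18.5. Within this lineage control Barhl2 was at 7.40 to 16.5 CPM at E14.5 and 52.3 to 66.0 CPM at E18.5, without overlap. Pontine-like control sums held 8.28 to 26.8 and 18.6 to 28.2 CPM of Barhl2, which overlapped. Stage differences within the lineages were not tested.

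Of 29 further genes of the pathway, 9 rose and 15 fell between the stages by the same test, where 51.6% of all genes were called. The other 5 did not pass, and the median log2 fold change was -0.46, against 0.0089 over all genes tested. The count is a description, since the list was chosen with earlier results known. Neurod1, a differentiation factor of granule cells, rose by 2.13 and Ntf3 by 2.93. Zic1, a transcription factor of granule progenitors, rose by 1.05. Atoh1 fell by 1.41, Robo3, the guidance receptor of midline-crossing neurons, fell by 3.39, and Lhx2, a LIM homeodomain factor of Atoh1-derived neurons, fell by 4.80. Of the Groucho/TLE corepressors, Tle2 and Tle3 rose by 0.66 and 0.74 while Tle1 and Tle4 fell by 0.49 and 1.54.

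The effect of the S193A allele, the question of the design, was called for Barhl1 in pontine-like progenitors at E14.5. Barhl1 was at 118, 133 and 122 CPM in controls 1 to 3 and at 19.1, 36.3 and 23.6 CPM in mutants 1 to 3. Every mutant library lay far below every control library. The log2 fold change was -2.29 (SE 0.20, 0.204-fold; edgeR quasi-likelihood, Benjamini-Hochberg adjusted p = 0.00395). It was the only gene called of 10118 tested, so that 0.00988% of genes were called. The sums rest on 174, 353 and 188 Barhl1 UMIs in the controls and 143, 264 and 269 in the mutants.

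The share of cells with a Barhl1 UMI was lower as well. With cells thinned to 5000 UMIs, 19.2% ± 2.54 of control and 7.27% ± 1.08 of mutant pontine-like progenitors held a Barhl1 UMI (SD, n = 3 each). The groups did not overlap, and the two-sided exact permutation test gave p = 0.1, the smallest that 3 against 3 allows. Without thinning the shares were 30.6%, 27.0% and 37.0% in controls and 16.2%, 14.2% and 16.8% in mutants. In glia-like cells of the E14.5 libraries the share was 0% to 19.4%, with only 16 to 37 cells per library at that depth, and fewer in mutant 2. Mutant 2 held 0.159% of its kept cells in this class, with 0 CPM of Barhl1. Barhl2 was at most 3.88 CPM in any of these libraries and did not enter the fit.

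The progenitor class was larger in the mutants, with 357, 318 and 511 cells against 72, 115 and 81, or 4.60% to 7.78% of sorted cells against 1.23% to 2.22%. Atoh1 in these cells was at 233, 194 and 129 CPM in controls and 154, 179 and 122 CPM in mutants, which overlapped (log2 fold change -0.34, SE 0.19, adjusted p = 1.0 by edgeR). Within littermate pairs Atoh1 was lower in the mutant in 3 of 3. Summed marker lists of neighboring states also overlapped between the groups. The intermediate progenitor list, which includes Atoh1, held 1722, 1418 and 956 CPM in controls and 1258, 1480 and 719 CPM in mutants. The migrating neuron list held 57.7, 115 and 77.6 against 42.6, 97.6 and 57.0 CPM. The list of differentiated neurons held 216, 374 and 419 CPM in controls and 192, 259 and 254 CPM in mutants. Within littermate pairs the migrating and the differentiated lists were each lower in the mutant in 3 of 3, and the intermediate progenitor list in 2 of 3. Their part in the Barhl1 difference was not tested.

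With littermates as a block the same difference was -2.30 (SE 0.12), and 97 genes were called, 45 higher and 52 lower. Without the second pair it was -2.52 (edgeR adjusted p = 0.0013). Limited to the libraries of 1 Cell Ranger version, which leaves a single control, it was -2.33 with an adjusted p of 0.73 by edgeR. Among pontine-like progenitors without an Atoh1 UMI at 5000 UMIs, Barhl1 was at 0, 37.1 and 12.2 CPM in controls and 13.1, 3.21 and 5.88 CPM in mutants, which overlapped. Bins of these cells with an Atoh1 UMI held under 20 control cells each and are not compared between genotypes. Mutant progenitors with 2 to 3 Atoh1 UMIs had 20.7, 132 and 73.8 CPM of Barhl1, higher than those without in 3 of 3 mutant libraries.

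**Figure D3:**
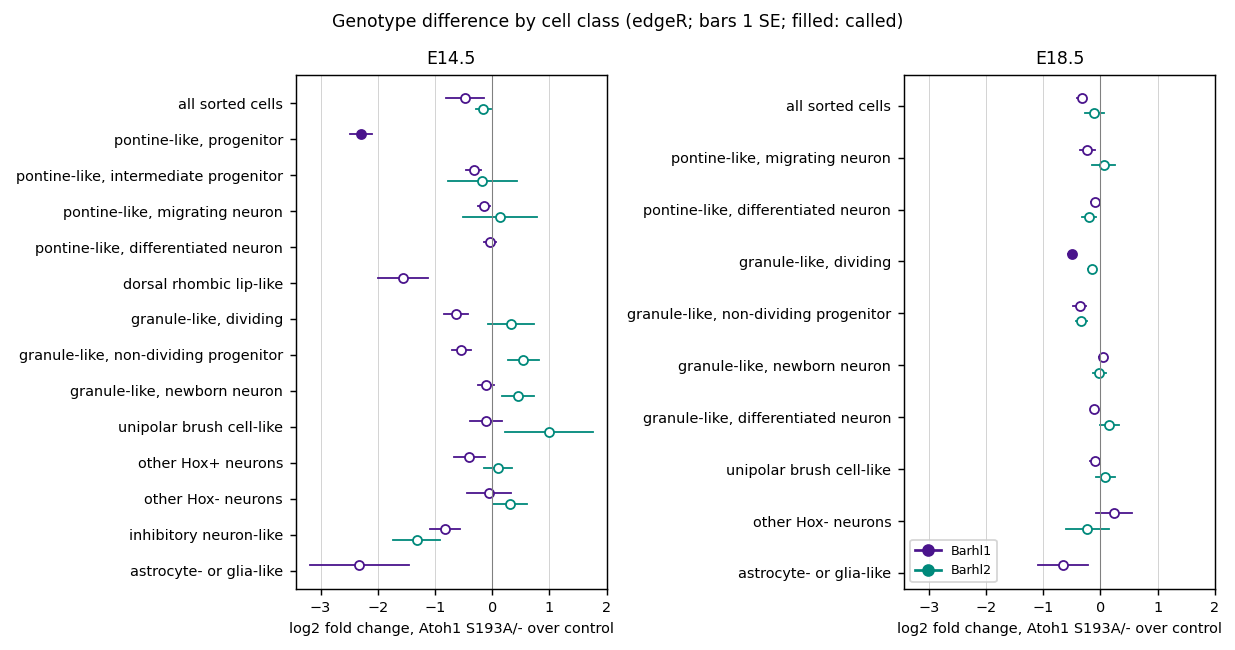
Log2 fold change of Barhl1 and Barhl2, Atoh1 S193A/- over control, in all sorted cells and in each class at E14.5 (left) and E18.5 (right). Points are edgeR estimates, bars are 1 SE, and filled points passed the test. Pontine-like progenitors at E14.5 (-2.29) and dividing granule-like cells at E18.5 (-0.49), both for Barhl1, are the filled points.

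Later pontine-like states showed smaller log2 fold changes, and whether the states differed in the genotype effect was not tested. Intermediate progenitors held 1345, 1058 and 1072 CPM of Barhl1 in controls and 998, 803 and 1005 CPM in mutants. No library overlapped, but the log2 fold change of -0.33 (SE 0.13) did not pass the test (edgeR adjusted p = 1.0). With the littermate block the value was again -0.33 and passed (adjusted p = 0.0424 by edgeR), with 2.88% of genes called. Migrating neurons held 919, 890 and 729 CPM in controls and 808, 738 and 813 CPM in mutants and overlapped, with a log2 fold change of -0.14 (SE 0.10). Differentiated neurons held 657, 627 and 540 against 625 and 603 CPM in the mutants that had such cells, with a log2 fold change of -0.045 (SE 0.11).

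Summed over the pontine-like lineage at E14.5, Barhl1 was at 915, 796 and 691 CPM in controls and 589, 508 and 563 CPM in mutants, with no overlap. The log2 fold change was -0.57 (SE 0.11; edgeR, Benjamini-Hochberg adjusted p = 0.028). Of 10100 genes tested in this sum, 7.03% were called, 534 higher and 176 lower, and with the littermate block 1381 were higher and 1136 lower. The call was lost without control 1 (adjusted p = 0.0835), control 2 (0.0622), mutant 1 (0.0601), mutant 2 (0.0613) or mutant 3 (0.0986), and without the second pair (-0.50, adjusted p = 0.0726), all by edgeR. The larger progenitor class is part of this sum. When progenitors were left out, the sums were 995, 898 and 729 CPM in controls and 822, 751 and 816 CPM in mutants, and the groups overlapped.

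Barhl2 did not pass the genotype test in any pontine-like class. In intermediate progenitors it was at 60.8, 9.38 and 59.1 CPM in controls and 52.4, 10.8 and 52.8 CPM in mutants, so the difference between littermate pairs was larger than that between genotypes. Its log2 fold change was -0.17 (SE 0.61) without the block and -0.16 (SE 0.10) with it. In migrating neurons Barhl2 was at 21.0, 9.70 and 17.1 CPM in controls and 27.7, 2.78 and 24.4 CPM in mutants. Over the pontine-like lineage its log2 fold change was -0.34 (SE 0.65, edgeR adjusted p = 0.78).

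At E18.5 the differentiated pontine-like neurons had 272 ± 23.1 CPM of Barhl1 in controls and 256 ± 20.5 CPM in mutants (SD, n = 3 each), a difference within that spread. The log2 fold change was -0.095 (SE 0.073) for Barhl1 and -0.20 (SE 0.12) for Barhl2 (edgeR adjusted p = 1.0 for both), where 0.0402% of genes were called. In astrocyte- or glia-like cells Barhl1 differed by -0.66 (SE 0.44, edgeR adjusted p = 1.0) over 5 libraries, the sixth holding 4 such cells, and 0.0103% of genes were called. That value was -0.26 without control 2, -0.34 without mutant 3, -1.08 without control 3 and -1.11 without mutant 1.

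In the granule-like lineage Barhl1 fell in dividing cells at E18.5. These dividing granule-like cells had 234, 222 and 226 CPM in controls and 176, 144 and 172 CPM in mutants, with no overlap. The log2 fold change was -0.49 (SE 0.067, 0.711-fold; edgeR quasi-likelihood, Benjamini-Hochberg adjusted p = 0.036), and 0.284% of 9857 genes were called, 11 higher and 17 lower. With the littermate block 58 genes were higher and 67 lower, and Barhl1 kept its call (adjusted p = 0.00237 by edgeR). The call was lost without control 1 (adjusted p = 0.106), control 2 (0.174), control 3 (0.227), mutant 2 (0.0601) or mutant 3 (0.103), by edgeR. At 5000 UMIs 60.9% of control and 50.4% of mutant cells held a Barhl1 UMI, without overlap (p = 0.1, two-sided exact permutation test, the smallest possible).

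Barhl2 in the same dividing cells was at 59.7, 60.4 and 54.1 CPM in controls and 58.1, 50.9 and 49.8 CPM in mutants, which overlapped (log2 fold change -0.15, SE 0.069, edgeR adjusted p = 0.93). The ratio of Barhl1 to Barhl2 UMIs was 3.93 ± 0.24 in controls and 3.11 ± 0.32 in mutants (SD, n = 3 each). On the log2 scale its means were 1.97 and 1.63, without overlap (p = 0.1, two-sided exact permutation test). At E14.5 the same log2 ratio in dividing granule-like cells had means of 4.44 and 3.33, also without overlap (p = 0.1 by the exact permutation test). That difference of -1.10 was -0.60 without control 2 and -0.67 without the second pair. In all sorted cells the log2 ratio overlapped between genotypes at both stages (p = 0.4 at E14.5 and 0.3 at E18.5, exact permutation test).

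Granule-like states gave different values at E18.5. Non-dividing progenitors had 339, 285 and 303 CPM of Barhl1 in controls and 286, 203 and 241 CPM in mutants, with a log2 fold change of -0.36 (SE 0.11, edgeR adjusted p = 0.51). Newborn neurons had 223, 197 and 210 CPM in controls and 221, 210 and 235 CPM in mutants, with a log2 fold change of 0.045 (SE 0.067). Within this class cluster 16, led by Tlx3 and Isl1, was higher in mutants, at 117 to 122 CPM in controls and 172 to 208 CPM in mutants. It was chosen after its values were seen and was not tested. Whether the classes differed in the genotype effect was not tested. With the littermate block the value in non-dividing progenitors was -0.37 and passed (edgeR adjusted p = 0.0129), with 1.06% of genes called, against 0.339% of 9435 genes without it. Over the whole lineage the sums were 242, 222 and 221 CPM in controls and 197, 167 and 188 CPM in mutants, without overlap. That difference of -0.34 (SE 0.060) missed the test (edgeR adjusted p = 0.39) and passed it with the block (adjusted p = 0.0291). Genes called were 0.0408% without the block and 0.662% with it.

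At E14.5 the dividing and non-dividing granule-like cells had lower means in mutants, as at E18.5, with a wider spread. Dividing cells had 396, 326 and 327 CPM of Barhl1 in controls and 287, 151 and 238 CPM in mutants. The groups did not overlap, and the log2 fold change was -0.63 (SE 0.21, edgeR adjusted p = 1.0), or -0.67 with the littermate block, which passed (adjusted p = 0.0234, with 1.18% of genes called). Without the second pair it was -0.46 and did not pass (edgeR adjusted p = 1.0). Non-dividing progenitors had 397, 349 and 300 CPM against 247 and 231 CPM, with -0.54 (SE 0.16, adjusted p = 1.0) and with the block -0.51, which passed (adjusted p = 0.0165 by edgeR, with 1.23% of genes called). Mutant 2 was left out of this class, so control 2 had no littermate and the block value rests on the other pairs. Newborn neurons had 398, 349 and 309 CPM against 379, 303 and 323 CPM and overlapped. Barhl2 leaned the other way in these classes, with log2 fold changes of 0.34 (SE 0.40), 0.54 (SE 0.27) and 0.45 (SE 0.27), none of which passed with or without the block.

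Whether the genotype effect differed between the pontine-like and granule-like lineages was tested as an interaction. At E14.5 the difference of effects was -0.17 (SE 0.076) for Barhl1 and -0.91 (SE 0.39) for Barhl2 on the log2 scale, and neither passed (edgeR adjusted p = 0.34 and 0.33), where 2.07% of genes did. With 1 library left out at a time these ran from -0.21 to -0.13 and from -1.22 to -0.55. At E18.5 the difference of effects was 0.20 for Barhl1 (adjusted p = 0.89 by edgeR) and -0.025 for Barhl2, and 0.0186% of genes were called. The Barhl1 value ran from 0.12 to 0.33 with 1 library left out. The change of the genotype effect between the stages, over all sorted cells, was 0.16 for Barhl1 and 0.060 for Barhl2, and neither passed (edgeR adjusted p = 0.95 and 0.97).

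In the classes outside both lineages no difference passed, with or without the littermate block. Dorsal rhombic lip-like cells had 36.3, 31.3 and 13.1 CPM of Barhl1 in controls and 14.2, 4.47 and 8.78 CPM in mutants, which overlapped (log2 fold change -1.56, SE 0.44, edgeR adjusted p = 1.0), and 0.00975% of genes were called there. With no filter on low genes that value passed, at -1.55 (adjusted p = 0.0319 by edgeR). Glia-like cells at E14.5 had 8.30, 2.44 and 46.0 CPM of Barhl1 in controls and 5.04, 0 and 4.39 CPM in mutants, which overlapped, from 2, 1 and 22 UMIs against 2, 0 and 3. The log2 fold change there was -2.32 (SE 0.86, edgeR adjusted p = 1.0), as large as in pontine-like progenitors, with 0% of genes called. It was -0.92 with cells clustered at Leiden resolution 2, and without control 3 the gene no longer entered the fit. Inhibitory neuron-like cells had 41.5, 74.6 and 46.7 CPM of Barhl1 against 33.4, 22.2 and 40.2 CPM, and their Barhl2 was at 15.8, 51.6 and 37.8 against 10.1, 12.4 and 21.8 CPM. Those differences, -0.82 (SE 0.27) for Barhl1 and -1.32 (SE 0.41) for Barhl2, shrank to -0.28 and -0.77 without the second pair. In unipolar brush cell-like neurons at E18.5 Barhl1 was at 336, 333 and 301 CPM in controls and 342, 270 and 294 CPM in mutants. Over all sorted cells Barhl1 was at 394, 210 and 252 against 272, 129 and 221 CPM at E14.5 (-0.47, SE 0.33, edgeR adjusted p = 0.61, with 0.00977% of genes called). With the block it was -0.50 and passed (edgeR adjusted p = 0.021), where 17.1% of genes were called. The value without the block was -0.19 without control 1, -0.22 without mutant 2 and -0.72 without mutant 1. At E18.5 it was at 278, 251 and 245 against 231, 188 and 204 CPM (-0.33, SE 0.078, adjusted p = 1.0 by edgeR).

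Barhl1 also varied with the Atoh1 UMIs of the cell itself, counted after thinning to 5000 UMIs. In the pontine-like lineage at E14.5, control cells without an Atoh1 UMI had 709, 678 and 622 CPM of Barhl1, and cells with 4 or more had 1305, 1096 and 1106 CPM. Mutant cells had 520, 425 and 457 CPM and 983, 663 and 1000 CPM in the same bins. At each of the 4 Atoh1 levels every mutant library lay below every control library in this sum. Its bins mixed states in unequal shares. Of the cells without an Atoh1 UMI, 214 of 682 were progenitors in mutant 1 and 39 of 457 in control 1. Within intermediate progenitors alone controls had 1353, 1000 and 1080 CPM at 1 Atoh1 UMI, 1365, 1063 and 1148 CPM at 2 to 3, and 1346, 1032 and 1118 CPM at 4 or more. Mutant intermediate progenitors had 858, 892 and 863 CPM at 1, 1047, 788 and 1035 CPM at 2 to 3, and 1037, 819 and 1068 CPM at 4 or more. The genotypes did not overlap at 1 or at 2 to 3 Atoh1 UMIs and overlapped at 4 or more.

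The granule-like lineage was read in the same bins at both stages. At E14.5 control cells had 402, 344 and 310 CPM of Barhl1 without an Atoh1 UMI and 423, 353 and 327 CPM with 2 to 3, higher in 3 of 3 libraries. Mutant cells there had 314, 304 and 270 CPM without and 271, 245 and 240 CPM with 2 to 3, lower in 3 of 3. These bins also mixed states. In dividing granule-like cells alone, E14.5 controls had 386, 300 and 316 CPM without and 424, 264 and 353 CPM with 2 to 3. Mutant dividing cells had 288, 200 and 236 CPM without and 295, 160 and 240 CPM with 2 to 3. Both genotypes were thus higher with 2 to 3 in libraries 1 and 3 and lower in library 2. At E18.5 control cells had 233, 217 and 210 CPM without an Atoh1 UMI and 445, 328 and 378 CPM with 2 to 3, higher in 3 of 3 libraries. Mutant cells at E18.5 had 198, 181 and 195 CPM without and 267, 211 and 275 CPM with 2 to 3, higher in 3 of 3. Neither the difference between bins nor its change between stages or genotypes was tested. The genotypes did not overlap in the bins of 0, 1 or 2 to 3 Atoh1 UMIs at E18.5, and bins under 20 cells are not used. Because Atoh1 was sampled at low depth, a cell without an Atoh1 UMI need not lack Atoh1 RNA.

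**Figure D4:**
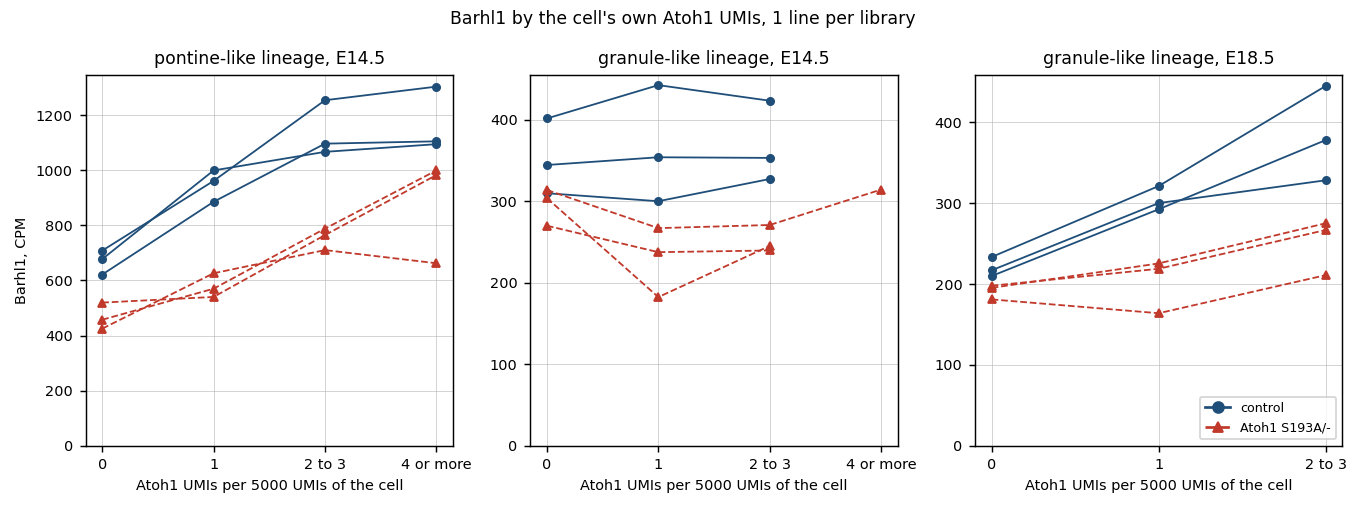
Barhl1 level (CPM, y axis) in cells grouped by their own Atoh1 UMIs at 5000 UMIs per cell (x axis), with 1 line per library, in the pontine-like lineage at E14.5 and the granule-like lineage at E14.5 and E18.5. Solid blue lines are control, dashed red lines Atoh1 S193A/-. In the pontine-like panel control libraries go from 622 to 709 CPM without Atoh1 UMIs to 1096 to 1305 CPM with 4 or more.

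Genes of the same pathway were read from a list of 29 in each comparison. The list was chosen with earlier results of these data known. Its share of calls beside that of all genes is therefore a description and no test of the pathway. In pontine-like progenitors 21 were in the fit and none passed edgeR, with a median log2 fold change of -0.069 against 0.0034 over all genes tested. At an unadjusted p under 0.05 there were 5, where 3.5% of all genes were. DESeq2 called 1 of them, Rab15, lower, where 0.0791% of genes were called. With the littermate block edgeR called 4, Cntn2, Hes6, Mab21l2 and Rab15, lower, where 0.959% were called. Rab15, a small GTPase of vesicle traffic, had the fold change nearest to that of Barhl1, at -2.55 (SE 0.45, adjusted p = 0.30 by edgeR). Over the pontine-like lineage 3 of the 27 in the fit passed edgeR, where 7.03% of all genes did. With the littermate block 16 of the 27 passed, 4 higher and 12 lower, where 24.9% of all genes did, and by DESeq2 6 passed, where 13.5% did. Without the block the Notch ligand Dll1 was higher by 1.01 and the guidance cue Slit2 by 0.96, and Rab15 fell by 1.67. In dividing granule-like cells at E18.5, Rab15 fell by 2.16 and Mab21l2 by 1.14, the 2 called of 23 in the fit where 0.284% of all genes were called (3 with the block, where 1.27% were, and 4 by DESeq2, where 0.984% were). Atoh1 differed by 0.35 (SE 0.090, edgeR adjusted p = 0.33). It was among the 4 called by DESeq2, as higher in mutants, and was not called with the block. Atoh1 there was at 50.6, 55.4 and 52.8 CPM in controls and 78.1, 64.3 and 62.7 CPM in mutants, without overlap. At E18.5 the block fit called Atoh1 higher in newborn, differentiated and non-dividing granule-like cells. In those fits 0.219%, 0.329% and 1.06% of genes were called.

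The genes whose levels were most like those of Barhl1 and Barhl2 were ranked by Pearson's r over the class-by-library control sums, which share libraries and depth. At E14.5, over 39 sums and 10589 genes, Ppp1r14b (r = 0.90), C230057M02Rik, Lzts1, Nav2 and Mtcl1 led for Barhl1, Atoh1 gave 0.63, and Clu was lowest at -0.90. For Barhl2 the leading gene was Gm28050 (r = 0.88), a long noncoding RNA at chr5:106500894-106574718, 42.7 kb from Barhl2, followed by Ebf3 at 0.74. At E18.5, over 28 sums, H3f3a (0.93) and Celf1 led for Barhl1 and Uncx (0.93) and Cep78 for Barhl2. At P5, over 16 sums, Neurod2 (0.96) and the reporter element WPRE (0.95) led for Barhl1, and Rgs13 (0.98) and Igfbpl1 for Barhl2. Between Barhl1 and Barhl2 themselves r was 0.28 at E14.5, 0.79 at E18.5 and 0.71 at P5.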

How the data were processed

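Single TdTom+ DAPI- cells were profiled with the 10x 3′ v3.1 kit. The deposited values are whole UMI counts per gene and cell, made by the authors with Cell Ranger on mm10 plus the reporter element WPRE. Per the file headers, 12 libraries were made with version 5.0.1 and E14.5 controls 1 and 2 with 3.1.0. Barhl1, Barhl2 and the lists were chosen with earlier results of these data known. Cells with at least 1000 genes and under 5% mitochondrial UMIs were kept, since 18 to 209 cells per library passed the 1% limit stated by the study. Library medians were 3.25% to 5.09%, so the 5% limit removed many cells, and unevenly. From 3511 of 7972 barcodes (E14.5 control 1) to 7474 of 9000 (E14.5 mutant 2) passed. A limit of 10% was tried for sums over all sorted cells only, so no class result was checked against it. The top 7.5% by Scrublet score were removed as doublets. Cells were clustered per stage (scanpy 1.11.5, 2000 variable genes, 30 components, 15 neighbors, Leiden resolution 1). Classes follow fixed markers, but their numeric limits were set after the cluster means were seen.

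Counts were summed per class and library (at least 10 cells) and tested with edgeR 4.0.16 (quasi-likelihood, TMM) over the genes detected in no less than 10% of either genotype's cells. Calls needed a Benjamini-Hochberg adjusted p under 0.05 and an absolute log2 fold change over 0.25, and SEs were derived from the fold change and its F statistic. Single values were compared by two-sided exact permutation tests. DESeq2 1.42.0 was an alternative. The numbers pair littermates per the labels: deviations of same-numbered libraries correlated at 0.67, 0.83 and 0.70 (E14.5) and 0.74, 0.77 and 0.89 (E18.5). Named are Barhl1, Barhl2, a list of 29 pathway genes, of which those that passed or illustrate a group are named, and the genes most and least like them in level among those with a mean of at least 5 CPM. Clusters were singled out after their values were seen. The fits were tested on simulated counts. Kept cells had medians of 12011 to 20924 UMIs per library, and errors of low values cover counting and the spread between embryos together.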

Additional observations from a re-analysis of the deposited data

How the results depend on the processing

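Of 846 alternative values, 763 kept their direction and side of the threshold. The shares and ratios among them were judged by direction alone, since their permutation tests could not pass. Of the 47 alternatives to values that had passed the test, 34 still passed and 13 did not. With the littermate block Barhl1 passed at E14.5 in all sorted cells (-0.50), dividing (-0.67) and non-dividing granule-like cells (-0.51) and intermediate progenitors (-0.33), and at E18.5 in non-dividing granule-like cells (-0.37) and the granule-like lineage (-0.34), while Barhl2 in migrating neurons turned to -0.12 at E14.5 and -0.038 at E18.5. No other call on either gene changed under the block. The E14.5 block value in non-dividing granule-like cells lacked the second littermate pair. The block raised the genes called in all sorted cells at E14.5 from 1 to 1752 (DESeq2, 238), in pontine-like progenitors from 1 to 97 (DESeq2, 8), in the pontine-like lineage from 710 to 2517 and in dividing granule-like cells at E18.5 from 28 to 125.

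With Cell Ranger 5.0.1 libraries only, which leaves 1 control at E14.5, Barhl1 differed by -2.33 in pontine-like progenitors and by -0.39 in the pontine-like lineage. Signs turned for Barhl1 in newborn granule-like (0.054), other Hox-positive (0.13), differentiated (0.093), migrating (0.049) and unipolar brush cell-like neurons (0.59), and for Barhl2 in dividing granule-like cells (-0.13), migrating neurons (-0.023) and the stage-by-genotype term (-0.074). Without the second E14.5 pair, chosen after seeing the data, the pontine-like lineage missed the test (-0.50), and Barhl1 in other Hox-negative neurons (0.099) and the stage-by-genotype term of Barhl2 (-0.062) turned. Without a filter on low genes Barhl1 passed in dorsal rhombic lip-like cells (-1.55) and non-dividing granule-like cells at E18.5 (-0.36). With DESeq2 it passed in the E18.5 granule-like lineage (-0.34), and at Leiden resolution 2 unipolar brush cell-like Barhl1 turned to 0.10. The causes were not tested.

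Leaving out 1 library at a time, Barhl1 in the pontine-like lineage ranged from -0.64 to -0.48 and in dividing granule-like cells at E18.5 from -0.53 to -0.42, with 5 of 6 fits missing the test in each. At E14.5 signs turned within these ranges: Barhl2 in dividing granule-like cells (-0.0024 to 0.70), other Hox-negative (-0.064 to 0.57) and other Hox-positive neurons (-0.10 to 0.41), intermediate progenitors (-0.57 to 0.20), migrating neurons (-0.28 to 0.71) and the pontine-like lineage (-0.70 to 0.12), and Barhl1 in other Hox-negative (-0.64 to 0.24) and unipolar brush cell-like neurons (-0.38 to 0.061). At E18.5 they were Barhl2 in all sorted cells (-0.24 to 0.026), newborn granule-like (-0.13 to 0.080), migrating (-0.099 to 0.18) and unipolar brush cell-like neurons (-0.031 to 0.25), other Hox-negative neurons (-0.66 to 0.27), the pontine-like lineage (-0.33 to 0.059) and the lineage interaction (-0.11 to 0.11), and Barhl1 in other Hox-negative neurons (-0.095 to 0.60). The stage term of Barhl1 ranged from -0.40 to 0.050, and the stage-by-genotype terms from -0.11 to 0.40 (Barhl1) and -0.066 to 0.20 (Barhl2). Differences in Barhl2 shares ranged from -2.86 to 1.61 percentage points in the E14.5 pontine-like lineage, -0.25 to 2.95 in the E14.5 granule-like lineage and -3.15 to 0.023 in the E18.5 granule-like lineage, and the log2 ratio in intermediate progenitors from -0.90 to 0.58.

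With 3 embryos per genotype, the permutation tests cannot go below p = 0.1. Barhl2 in pontine-like progenitors and differentiated neurons at E14.5 was too low to enter the fits.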
